A study of Mus musculus with 4 samples.

Results

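Periostin (Postn), fibronectin (Fn1), the fibrillins (Fbn1, Fbn2), the fibulins (Fbln1, Fbln2) and the matricellular genes Sparc, Tnc, Thbs1 and Spp1 were compared between 2 regions of the embryonic mouse heart. The members were the probe sets whose platform annotation gives 1 gene symbol, that symbol being among these 10 genes. The rule found 12 probe sets of 8 genes, of 22626 non-control probe sets and 12393 named genes in all. Spp1 and Fbn1 had no such probe set and were not analysed here, and 1 further probe set was left out because its annotation joins a member with another gene. Sparc, Thbs1, Fn1 and Fbln1 each had a pair of probe sets, numbered from the brighter one, and the other 4 genes had 1 each.

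The hearts came from wild-type C57BL/6 mouse embryos at embryonic days 10.5 to 11.0. The atrioventricular (AV) junction and the ventricular region were dissected from about 80 hearts, and 230 ng of junction RNA and 250 ng of ventricular RNA were amplified. The amplified RNA was read on Affymetrix MOE430A arrays, 1 named 1a and 1 named 1b for each region, which gave 4 arrays and n = 2 per region. The arrays of a region were hybridised as duplicates. Nothing in the sources used here ties them to separate pools, so the tests measure the spread between arrays, which may be technical, and not the spread between hearts. The comparison was made to find genes needed for the development of the AV cushions. Each region is whole dissected tissue: fewer cells of a type and less RNA per cell cannot be told apart.

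The cushions are swellings of matrix between the endocardium and the heart muscle, filled by mesenchymal cells that leave the endocardium and later remodelled into valves and septa. Fibronectin is the adhesive glycoprotein on which such cells migrate. Fibrillins assemble into microfibrils that bind latent TGF-beta, and fibulins join microfibrils to other matrix molecules. Matricellular proteins, of which periostin, SPARC, tenascin-C, thrombospondin-1 and osteopontin are the best known, sit in the matrix but act on cells more than they bear load. Periostin is a textbook marker of cushion mesenchyme and of the valves it forms.

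Promoter windows are shown for the gene with the largest difference among the members, Postn, which has a pair of annotated starts, and for Sparc, a member bright in both regions that did not pass the test. Each line is the 250 bases before a RefSeq start in the assembly GRCm38.p6, read 5′ to 3′ on the gene's strand. Capitals mark TATAAA, the E-box CANNTG and CAGAC, the core of a Smad binding site, searched on both strands, with no overlap between motifs in these windows.
Postn, first start (chr3:54359017-54359266, plus strand): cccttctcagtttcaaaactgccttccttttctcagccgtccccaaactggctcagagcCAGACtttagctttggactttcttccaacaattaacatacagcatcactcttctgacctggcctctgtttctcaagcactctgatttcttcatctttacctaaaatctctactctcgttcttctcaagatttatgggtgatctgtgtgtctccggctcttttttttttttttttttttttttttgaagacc
Postn, second start (chr3:54360857-54361106, plus strand): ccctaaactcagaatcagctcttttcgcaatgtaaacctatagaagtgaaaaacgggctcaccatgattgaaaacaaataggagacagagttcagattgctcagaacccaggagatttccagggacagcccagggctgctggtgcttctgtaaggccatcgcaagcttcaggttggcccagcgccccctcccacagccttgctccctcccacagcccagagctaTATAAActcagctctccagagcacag
Sparc (chr11:55420081-55420330, minus strand): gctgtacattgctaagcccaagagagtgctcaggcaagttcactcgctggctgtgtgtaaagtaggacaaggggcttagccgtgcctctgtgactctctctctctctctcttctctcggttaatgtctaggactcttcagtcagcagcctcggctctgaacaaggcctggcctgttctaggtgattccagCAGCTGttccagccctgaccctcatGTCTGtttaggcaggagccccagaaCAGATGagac
The second Postn window held TATAAA, beginning 26 bases before the start, and the first held CAGAC 191 bases before it. The Sparc window held an E-box 60 and another 10 bases before the start and CAGAC, as GTCTG on this strand, 35 bases before it. Of 32851 windows of 250 bases before a start in the table, 12.4% held TATAAA, 66.2% CANNTG and 42.2% CAGAC. Neither Postn window held CANNTG, which says only that these letters are not in these windows. The files give no binding data for any of these motifs.

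Intensities below are the authors' MAS5 values scaled to a common trimmed mean of 500 per array, and a log2 fold is the AV mean less the ventricular mean of log2(intensity + 50). On that scale the folds of dim probe sets are understated. Of the 12 member probe sets, 10 of 7 genes had a mean of at least 100 and were tested with limma. With 0.05 as the limit on the p adjusted by Benjamini and Hochberg, 3 were higher in the AV junction and 0 were lower (5 and 0 at an unadjusted p under 0.05). Over all 13403 probe sets tested, 7.24% were higher and 6.58% lower, or 13.8% in either direction. That is 970 higher and 882 lower probe sets, which became 1714 and 459 when arrays were scaled to a common median, a choice that moved the median log2 fold of all tested from −0.07 to 0.09. The 3 members called higher were Postn, the first Fn1 probe set and Fbn2. The tested member probe sets had a median log2 fold of 0.31, against −0.07 over all tested. Arrays of the regions did not overlap in 5 of the 10, against 61.2% of all tested probe sets in either direction and 26.1% with the AV junction higher. In all 5 the AV junction was higher. Because 2 arrays stand against 2, 0.333 is the smallest two-sided p that exact permutation of single values allows.

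**Figure D1:**
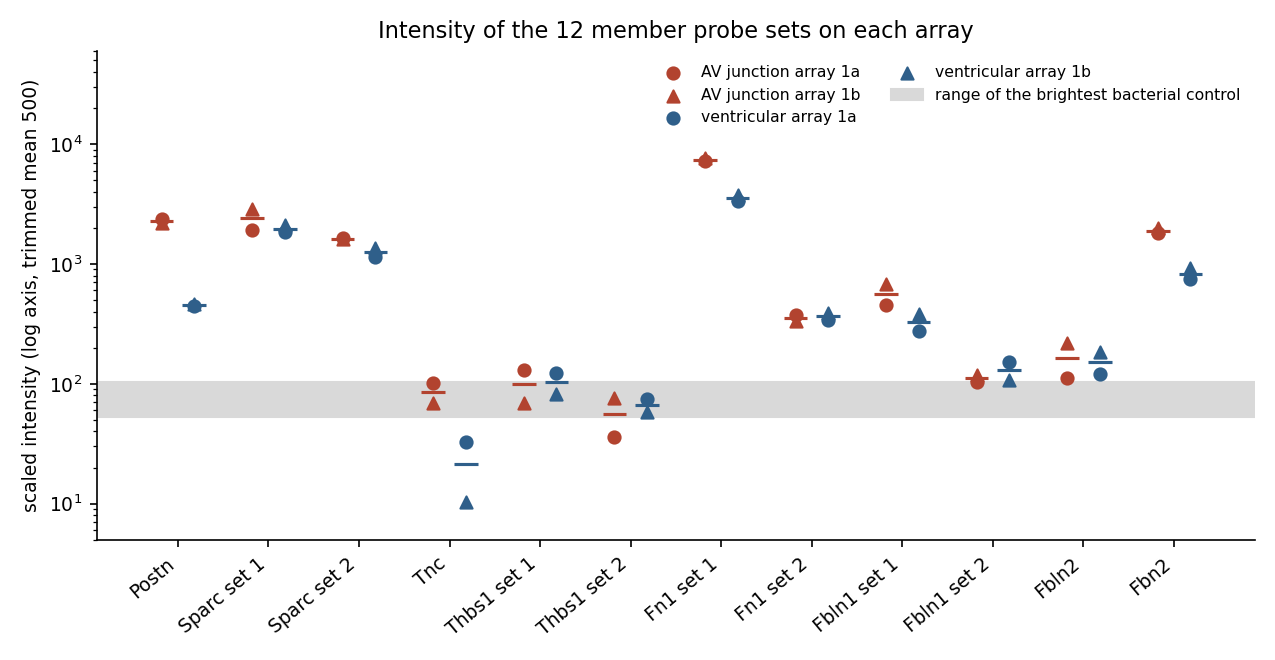
Scaled intensity (log axis) of the 12 member probe sets on each of the 4 arrays, with the AV junction in red, the ventricular region in blue and bars at the means of n = 2. Postn, Fn1 set 1 and Fbn2 stand clearly apart between regions, and Tnc and Thbs1 have no reading above 129; the grey band is the range over arrays of the brightest bacterial control (52.6 to 104).

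Postn (probe set 1423606_at) showed the largest difference of the 10 tested member probe sets. It read 2386 and 2180 (AV) against 443 and 460 (ventricular). Both AV arrays were far above both ventricular arrays, and the arrays of a region lay close together. The means were 2283 ± 145 and 451.5 ± 12.2 (SD, n = 2), a 4.65-fold difference with a 95% interval of 3.86 to 5.59 (limma, adjusted p = 0.000109). The difference ranked 26th from the top among the 13403 tested log2 folds. Without the added 50 the ratio of geometric means was 5.05. The log2 fold of 2.22 lay between 2.15 and 2.28 when any 1 array was left out. Both ventricular readings lay well above the brightest Bacillus subtilis control of their own array, which was 97.9 and 104, so Postn had a signal in both regions.

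The other matricellular genes did not pass or were too dim to test. Sparc, a collagen-binding glycoprotein of many embryonic tissues, was bright in both regions. Its first probe set (1416589_at) read 1921 and 2893 (AV) against 1837 and 2109 (ventricular). These overlapped, since the lower AV array fell between the ventricular ones (log2 fold 0.26, 95% interval −0.18 to 0.69, limma adjusted p = 0.377). Without AV array 1b the value turned to −0.03. The second Sparc probe set (1448392_at) read 1640 and 1616 against 1143 and 1360. Here both AV arrays were above both ventricular arrays, by 1.29-fold (95% interval 1.07 to 1.57), and the difference missed the threshold (limma adjusted p = 0.0796). With median scaling of the arrays it passed (log2 fold 0.53, adjusted p = 0.0324).

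Tnc, which encodes tenascin-C, an anti-adhesive protein of remodelling matrix, read 101 and 69.4 (AV) against 32.5 and 10.4 (ventricular) (1416342_at). The regions did not overlap, both AV arrays lay above their array's bacterial control and both ventricular arrays below it. That control was lower on the AV arrays (58.6 and 52.6) than on the ventricular arrays (97.9 and 104). Its mean of 53.2 was under the limit for testing. No fold is given, because the AV arrays did not exceed the control level of the ventricular arrays on average.

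Thbs1 encodes thrombospondin-1, which can release TGF-beta from its latent form. Its first probe set (1460302_at) read 129 and 69.0 (AV) against 124 and 82.8 (ventricular). The regions covered the same range (log2 fold −0.06, 95% interval −0.78 to 0.67, limma adjusted p = 0.915), an interval that does not show equal levels. The second (1450377_at), at 35.9 and 76.1 against 75.1 and 58.7, was not tested. Of these 8 readings 4 lay above the bacterial control of their own array, so Thbs1 was near the background of these arrays. The control was lower in the AV junction, so 69.0 (AV) counted as above it and 82.8 (ventricular) as below.

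**Figure D2:**
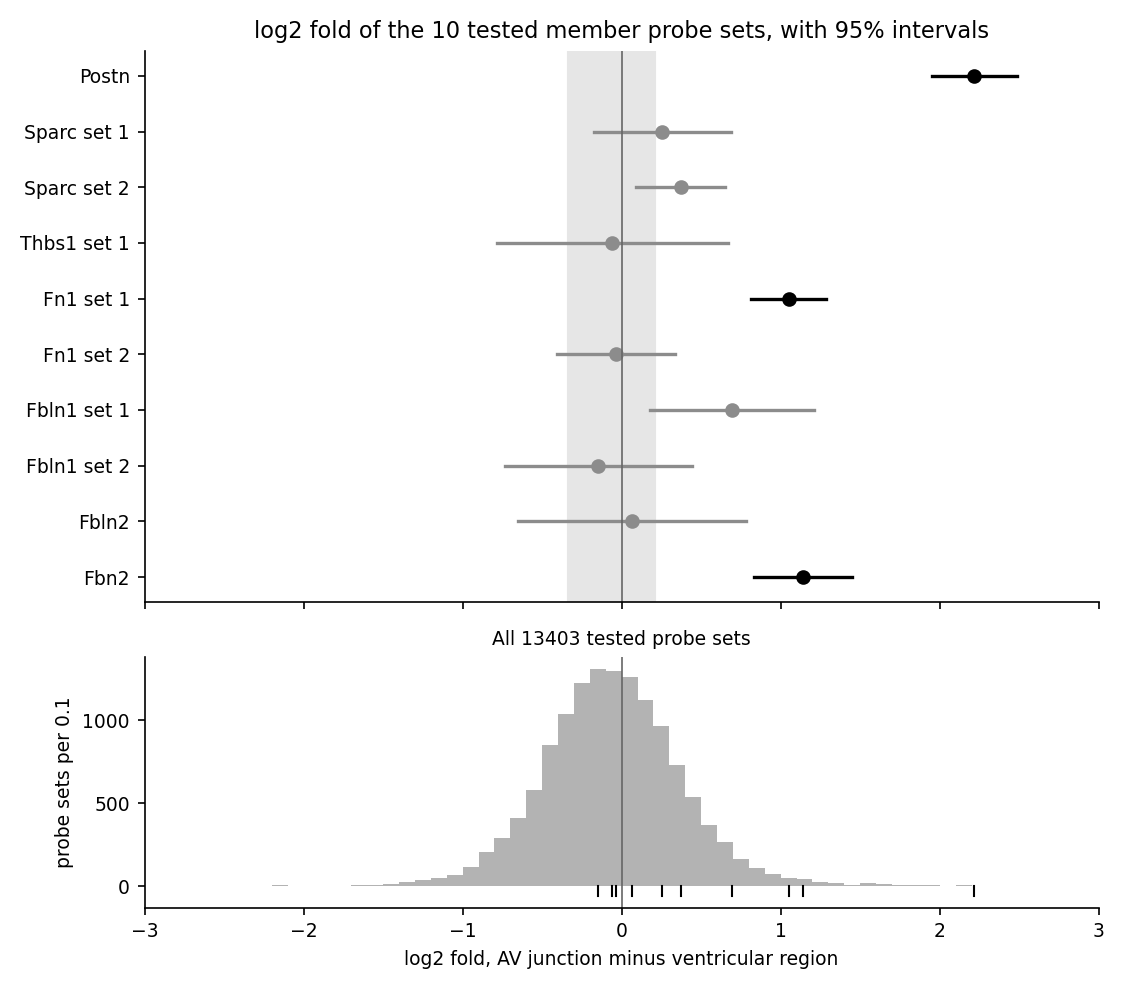
Upper panel: log2 fold with its 95% interval (limma, n = 2 arrays per region) for the 10 tested member probe sets, in black for those that passed; the grey band is the middle 50% of all tested probe sets. Lower panel: histogram of the log2 folds of all 13403 tested probe sets in steps of 0.1, with ticks at the members, of which Postn lies at 2.22.

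Fn1 had the brighter readings in the AV junction on its first probe set only. That probe set (1426642_at) read 7160 and 7601 (AV) against 3317 and 3770 (ventricular). Both regions were bright and the AV arrays were about 2 times the ventricular ones, at 7381 ± 312 and 3544 ± 320. The fold was 2.07 with a 95% interval of 1.76 to 2.44 (limma, adjusted p = 0.00117). The second Fn1 probe set (1437218_at) read 377 and 333 against 342 and 388, so that the regions overlapped. Its log2 fold was −0.04, with a 95% interval of −0.41 to 0.33 (limma, adjusted p = 0.895), and it turned to 0.12 with median scaling and 0.01 with quantile normalisation.

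Within each array the log2 intensity of the first Fn1 probe set exceeded that of the second by 4.08 and 4.32 (AV) against 3.10 and 3.12 (ventricular). The size of such a gap depends on the probes, but its change between regions does not depend on the scaling of the arrays, apart from the added 50. The change was 1.09 with no overlap, at an exact two-sided permutation p of 0.333, the smallest that 4 arrays can give. The annotation used here does not say which part of the transcript or which splice form each probe set reads. The RNA was amplified, and the 3′ to 5′ intensity ratio of the Gapdh control was 16.3 and 15 (AV) against 17.4 and 18.4 (ventricular), lower on both AV arrays. That of the actin control was 21.7 and 23.4 (AV) against 16.6 and 21.7 (ventricular). Their part in the difference between probe sets was not tested.

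**Figure D3:**
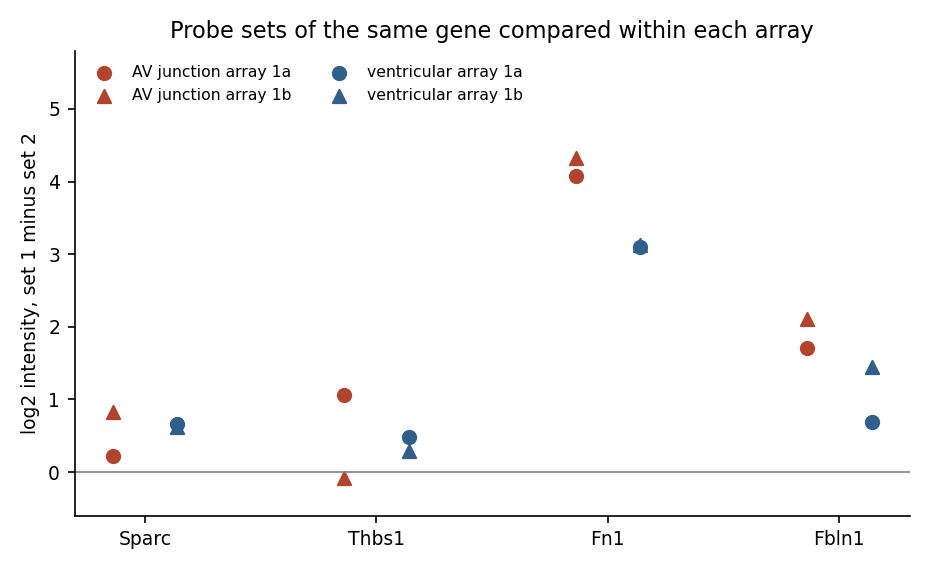
Log2 intensity (with 50 added) of the first probe set minus that of the second for the 4 member genes with a pair of probe sets, on each of the 4 arrays (AV junction in red, ventricular region in blue). The regions are apart for Fn1, at 4.08 and 4.32 against 3.10 and 3.12. They are also apart for Fbln1, whose second probe set was near background, and overlap for Sparc. The second Thbs1 probe set was above the bacterial control on 1 of 4 arrays.

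Of the fibulins, Fbln1 encodes a calcium-binding glycoprotein that binds fibronectin and versican, and neither of its probe sets passed. Its first probe set (1451119_a_at) read 456 and 676 (AV) against 276 and 382 (ventricular). The regions did not overlap, but the arrays of each region were spread widely. The 1.62-fold difference (95% interval 1.13 to 2.31) missed the threshold (limma, adjusted p = 0.0787). It passed with median scaling (log2 fold 0.85, adjusted p = 0.0300). Its log2 fold of 0.69 was 0.43 without AV array 1b, 0.49 without ventricular array 1a, 0.89 without ventricular array 1b and 0.95 without AV array 1a, and it passed in none of these.

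The second Fbln1 probe set (1422540_at) read 104 and 119 against 152 and 108, with overlap, all 4 above the bacterial control of their own array. Its log2 fold was −0.15 (limma, adjusted p = 0.721), and 0.01 with median scaling and 0.02 with quantile normalisation. Within arrays the first probe set exceeded the second by a log2 of 1.71 and 2.11 in the AV junction and 0.69 and 1.45 in the ventricular region. These did not overlap either (change 0.84, exact two-sided permutation p = 0.333, the smallest possible here). The second probe set was near background, reading 108 on ventricular array 1b against a control of 104, which limits the comparison. For Sparc these within-array gaps overlapped between regions (change −0.12, exact two-sided permutation p = 1). The Thbs1 gaps are not compared, because its second probe set was above the bacterial control on 1 of 4 arrays. Fbln2, a fibulin of cushion-derived cells and the valves, read 111 and 219 (AV) against 120.0 and 183 (ventricular) (1423407_a_at). Replicate 1b was the brighter array in both regions, and the regions overlapped (log2 fold 0.06, 95% interval −0.65 to 0.78, limma adjusted p = 0.907).

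Fbn2, the fibrillin made mainly in embryonic tissue, read 1795 and 1975 (AV) against 744 and 916 (ventricular) (1422831_at). The regions did not overlap, and the gap between them was wider than the spread within either, at 1885 ± 127 against 830 ± 122. The fold was 2.21, with a 95% interval of 1.78 to 2.73 (limma, adjusted p = 0.00244). Its log2 fold of 1.14 ranked 177th from the top among the 13403 tested probe sets and that of the first Fn1 probe set, 1.05, ranked 220th. The 3 member probe sets that passed also passed without any 1 of the 4 arrays. When limma tested against a minimum fold of 1.5 in place of 0 difference, only Postn of the 3 passed (adjusted p = 0.000513), while Fn1 and Fbn2 did not (adjusted p = 0.0746 and 0.110).

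Genes with log2(intensity + 50) values closest to those of Postn were sought among 8409 other genes, each by its brightest probe set. Closeness was the root mean square difference of these values, centred over the 4 arrays. The nearest were Cd248, a stromal membrane glycoprotein (0.0434), the homeobox gene Hoxa5 (0.0871), the TGF-beta ligand gene Tgfb2 (0.0894) and Prkar1b, a regulatory subunit of protein kinase A (0.0928). Cd248 and Hoxa5 were below the bacterial control on both ventricular arrays and were at least 2.5-fold and 2.12-fold higher in AV tissue. Cd248 read 279 and 229 (AV) against 16.1 and 16.1 (ventricular), and Hoxa5 207 and 222 against 10.7 and 9.73. At such dim ventricular readings the closeness depends on the added 50. For Cd248 and Hoxa5 it therefore does not show a fold of similar size to that of Postn. For Fbn2 the nearest were Casp6, a caspase (0.0406), Csf1r, the receptor of macrophage colony-stimulating factor (0.042), Sh3gl3 (0.0435) and the member Fn1 (0.0605).

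Other genes of the same matrix systems were described from 4 lists, each gene by its brightest tested probe set. Over all 8410 genes tested this way 8.47% were higher and 6.54% lower, and the median log2 fold was −0.06. Nid1, Lgals1, Fstl1, Egfl7, Ltbp1, Ltbp3, Vcl, Tgm2, Eln, Itga4, Itga5 and Itgav fall outside the naming rule and were chosen after their values were seen.

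Other matricellular and related matrix proteins went both ways. Of 17 tested genes of this list 5 were higher and 2 lower, and the median log2 fold was 0.05. Tgfbi, a secreted relative of periostin with the same fasciclin domains, read 5814 and 4251 (AV) against 1747 and 1540 (ventricular), a 2.97-fold difference (limma, adjusted p = 0.0013). Of the other Tgfbi probe sets 2 passed too, with log2 folds of 1.80 and 0.57, and 1 did not, at 0.34. Ccn4 of the CCN family of matricellular proteins was higher, at a log2 fold of 1.21 (adjusted p = 0.00809), while a second probe set of it gave 0.94 and missed (adjusted p = 0.064). Ccn2, or connective tissue growth factor, of the same family, fell by 1.15 on the log2 scale (1855 and 1994 against 4054 and 4618, adjusted p = 0.00109). The other higher genes were Nid1, Lgals1 and Fstl1, with log2 folds of 0.86, 0.83 and 0.50, and the other lower gene was Egfl7 at −1.10. Another probe set of Lgals1 gave 1.12 and another of Fstl1 gave 0.82, and both passed. Other Egfl7 probe sets gave −1.30 and −0.78, which passed, and −0.82, which missed (limma, adjusted p = 0.0529). Fstl1 missed when either AV array or ventricular 1a was left out (adjusted p up to 0.0882), and Nid1 when AV 1a or ventricular 1b was (up to 0.0685). Leaving out 1 array left 3 (without AV array 1a) or 4 higher genes. The list's median was −0.04 without AV array 1a, 0.17 without AV array 1b, −0.13 without ventricular array 1a and 0.09 without ventricular array 1b.

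Among partners of fibrillin microfibrils and elastic fibres, 5 of 19 tested genes were higher and 0 lower (5 and 1 at limma's unadjusted p under 0.05), with a median log2 fold of 0.14. Mfap2, a glycoprotein that coats fibrillin microfibrils, read 300 and 328 (AV) against 54.6 and 53.3 (ventricular). The latter are below the bacterial control, so the control stood in for them and Mfap2 was at least 3.11-fold higher (limma, adjusted p = 0.00282). Tgfb2 had a log2 fold of 2.2 and was higher (adjusted p = 0.000305), while its other probe sets gave 0.58 and 0.77 and did not pass. Vcan, the hyaluronan-binding proteoglycan to which fibulins bind, rose by 1.15 (adjusted p = 0.000573), with 0.83 and 1.03 on its other probe sets, both of which passed. Ltbp1 and Ltbp3, which tie latent TGF-beta to microfibrils, rose by 1.14 and 0.62 (adjusted p = 0.0356 and 0.0096). Ltbp1 missed when AV 1a or either ventricular array was left out (adjusted p up to 0.169), and Ltbp3 without ventricular array 1a (adjusted p = 0.053). Without ventricular array 1a 3 genes of this list were higher. Elastin itself, Eln, read 399 and 398 against 328 and 315 and did not pass (log2 fold 0.27, adjusted p = 0.25).

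Receptors of fibronectin and the matricellular proteins, with their cytoplasmic partners, showed a share of calls near that of all genes. Of 24 tested, 2 were higher and 2 lower, and the median log2 fold was 0.00. Itgb5, an integrin subunit that periostin and vitronectin bind with the alpha v subunit, rose by 0.62 on its brightest probe set (1652 and 1509 against 995 and 1026, limma adjusted p = 0.0124). The other 3 probe sets of Itgb5 passed as well, with log2 folds of 0.78, 0.79 and 1.5. The brightest one missed when AV 1a or either ventricular array was left out (adjusted p up to 0.0655). Vcl, the adhesion plaque protein vinculin, rose by 0.51 (adjusted p = 0.0113), and missed when AV 1a or ventricular 1a was left out (up to 0.0711). Ddr1, a collagen receptor kinase, was 4.05-fold lower in the AV junction (632 and 527 against 2969 and 2091, adjusted p = 0.000889) on 1 probe set. The other 5 tested probe sets of Ddr1 gave log2 folds between −0.52 and 0.16 and did not pass. Sdc3, a membrane proteoglycan gene, was lower (log2 fold −0.57, adjusted p = 0.043) but missed without any 1 of the 4 arrays (up to 0.163) and with median scaling (adjusted p = 0.113) or quantile normalisation (0.051). The integrin subunit genes Itga4, Itga5 and Itgav, whose products bind fibronectin, missed the threshold at log2 folds of 0.93, −0.27 and 0.16. Itga4 and Itga5 were dim, and both read below the bacterial control on ventricular array 1b (41.3 and 95.9). Higher receptor genes numbered 0 when AV 1a was left out and 1 when either ventricular array was, and lower ones numbered 1 when AV 1b or either ventricular array was left out.

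The last list held fibronectin-associated collagens and genes of crosslinking and matrix turnover. Of 20 tested, 9 were higher and 1 lower, with a median log2 fold of 0.45. The fibrillar collagen genes Col3a1 and Col5a2 rose by 1.26 and 1.22 (limma, adjusted p = 0.000638 and 0.000783), and their other probe sets gave 1.33 and 0.71 and passed. Timp3, a matrix-bound inhibitor of metalloproteinases, rose by 1.01 (adjusted p = 0.0252), but its other probe sets gave 0.32 and 0.58 and did not pass. Its call was lost when either AV array or ventricular 1b was left out (adjusted p up to 0.093). The 1 lower gene was Tgm2, the transglutaminase that crosslinks fibronectin and other matrix proteins. It read 17073 and 18730 (AV) against 28803 and 31411 (ventricular) (log2 fold −0.75, adjusted p = 0.00369). All 4 other probe sets of Tgm2 were lower too, with log2 folds from −1.54 to −0.99. Higher genes of this list numbered 5 when AV 1a was left out, 4 when AV 1b or ventricular 1a was, and 3 when ventricular 1b was.

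**Figure D4:**
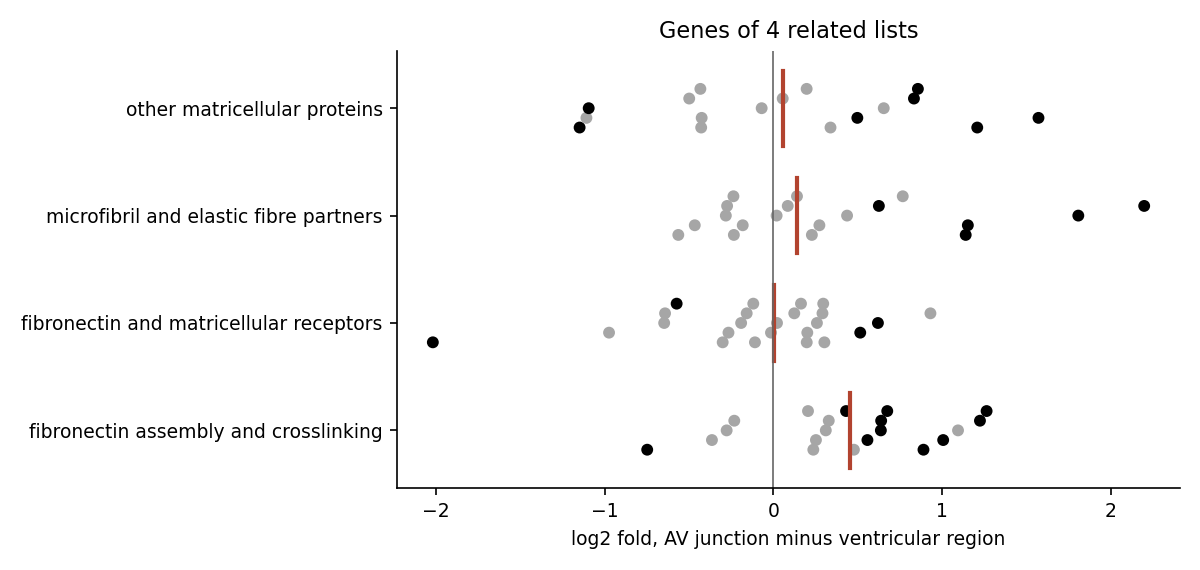
Log2 folds of the tested genes in 4 related lists (17, 19, 24 and 20 genes), each gene by its brightest probe set, with genes that passed in black, the others in grey and the list's median as a red bar. In the receptors 12 of 24 genes lie above 0 (median 0.00), with folds from −2.02 (Ddr1) to 0.93 (Itga4), and in the last list 16 of 20 do (median 0.45).

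Markers of the cell types that the tissue could hold differed between regions as well. Of cushion mesenchyme 7 of 8 tested markers were higher (0 lower), and their summed intensity was 10532 to 12405 on the AV arrays and 3799 to 3914 on the ventricular arrays. Of liver and serum protein genes 4 of 5 were higher (Afp, Ttr, Rbp4, Alb; 7224 to 7560 against 621 to 674) and of the endothelium 2 of 6 (Nfatc1, Tek; 2635 to 3077 against 1767 to 1994). Lower were 6 of 7 markers of ventricular muscle (20828 to 21885 against 70744 to 73881), 6 of 7 erythroid genes (41288 to 42425 against 77488 to 84859), 2 of 7 of the epicardium (Krt18, Krt19; 3590 to 3723 against 4795 to 4824) and 1 of 3 of smooth muscle (Tagln; 14042 to 15376 against 16747 to 17628). Of 8 general heart muscle genes 1 was higher (Myl7) and 3 lower (Myh7, Tnnt2, Tnni1), with sums of 99263 to 99457 and 117304 to 125794. Of 4 tested macrophage genes 1 was higher (Csf1r) and 1 lower (Lyz2), with sums of 3321 to 3377 and 2132 to 2266. Csf1r alone read 2287 and 2363 (AV) against 971 and 1137 (ventricular), so it made up most of the AV sum. Most of the smooth muscle sum was Acta2, which did not pass (13350 and 14418 against 15449 and 16261). Each sum is over all markers of its list with a probe set, tested or not. These numbered 8 for the endothelium, ventricular muscle, the epicardium, liver and serum proteins and macrophages, and 4 for smooth muscle. The 4 endothelial markers that did not pass had log2 folds of −0.71 (Emcn, limma adjusted p = 0.073), 0.30 (Cd34), 0.22 (Cdh5) and 0.16 (Kdr). No marker was at 0 on any array. When 1 array was left out, heart muscle kept 0 higher and 1 lower, the epicardium 0 lower (without AV 1a or ventricular 1a) or 1, and the endothelium 1 higher without ventricular 1a. Vcan is in this mesenchyme list as well as among the microfibril partners. The part of these cell types in the differences of Postn, Fn1 and Fbn2 was not tested. Across the 13403 probe sets Pearson's r of log2 intensities was 0.980 and 0.979 within regions and 0.947 to 0.950 between them.

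**Figure D5:**
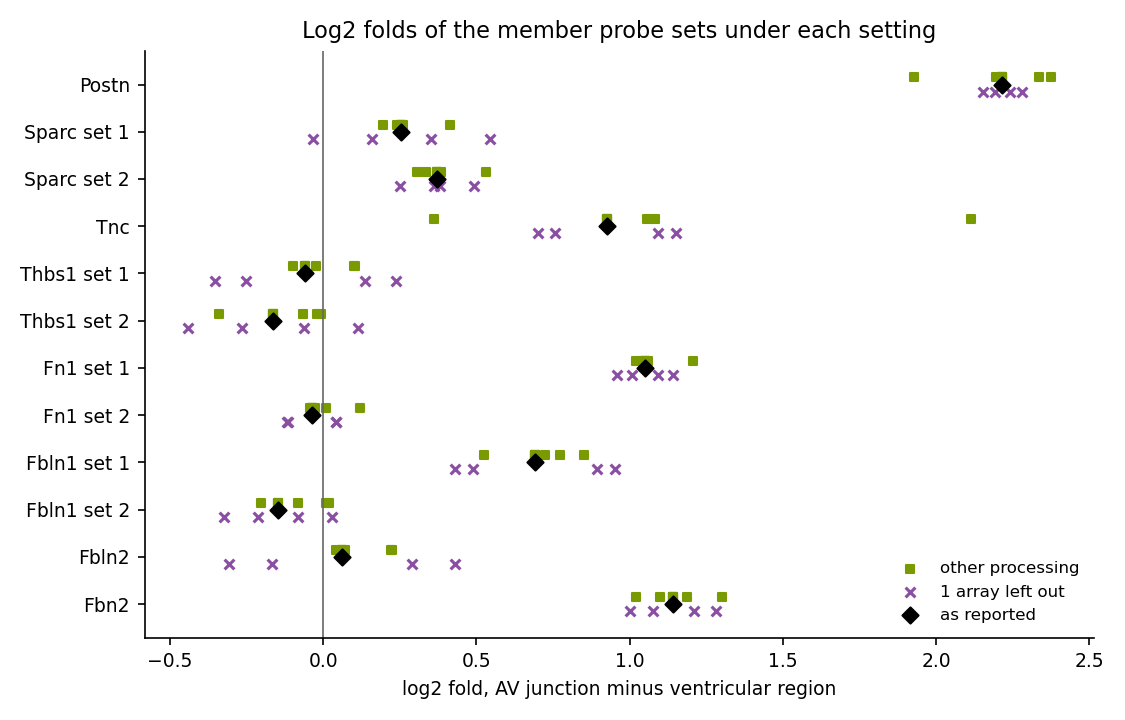
Log2 folds of the 12 member probe sets as reported (diamonds), under other processing settings (squares) and with 1 array left out (crosses). Postn, Fn1 set 1 and Fbn2 stay at 0.96 or above in every setting shown, Fbln1 set 1 runs from 0.43 to 0.95, and the Tnc marks, set against ventricular readings below the bacterial control, are no measured fold.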

How the data were processed

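Per the submitters' processing notes, MAS5 gave the values; the deposited table holds 1 linear intensity per probe set and array. No version, detection call or genome build is given in the sources used here. Every intensity was multiplied by about 3.35, so that the mean of the 22626 non-control probe sets, trimmed by 2% at each end, became 500. Probe sets with a mean of at least 100 (13403) were fitted as log2(intensity + 50) with limma 3.58.1 (lmFit, eBayes with trend, 7.43 total degrees of freedom) under R 4.3.3; the model held region alone. Adjusted p-values are Benjamini and Hochberg's over all 13403, with 0.05 as the threshold. Background was the brightest Bacillus subtilis control of each array; "at least" folds set the mean log2 AV intensity against the ventricular arrays' control. The fit was run on arrays simulated from its own variance model with independent errors. Such arrays cannot check technical duplicates, the scaling of arrays or readings near background.

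Members, gene lists and cell type markers were chosen with earlier results of these data known. Every member probe set is given. In each of the 4 lists the rule named the 3 largest log2 folds that passed without overlap. List names were matched through symbols and synonyms of a RefSeq table of GRCm38.p6. Promoter sequences are RefSeq's and were read for 5 member genes (8 windows, matched by symbol). The scanner records give 1 station and day for all arrays and a separate fluidics module for each, so no batch could be tested. Alternatives were other scalings, pseudocounts, filters and variance models, a minimum fold, a replicate block and leaving out each array. Figures were drawn with matplotlib 3.10.9.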

Additional observations from a re-analysis of the deposited data

How the results depend on the processing

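Postn, Fn1 probe set 1 and Fbn2 were higher and past the threshold in all settings run, except that Fn1 and Fbn2 missed against a minimum fold of 1.5, where 1 member probe set was called higher. With median scaling 5 were called, and with the replicate letter as a block (replicate block) 5, the additions in both being the second Sparc and the first Fbln1 probe set. No member was called lower in any setting. What the letters a and b have in common between regions is not known here. Differences of a minus b correlated at 0.06 between regions, which does not settle it, and the block was not used for the main results. Over all probe sets, higher and lower calls were 970 and 882, and became 1714 and 459 with median scaling (78.9% of calls higher against 52.4%, the median log2 fold moving from −0.07 to 0.09), 580 and 431 without a filter, 326 and 343 without trend, 91 and 60 against a minimum fold of 1.5, and 1344 and 1375 with the replicate block. With 1 array left out (the lone array of a region taken to vary like the other region) they ran from 404 (without ventricular array 1a) to 507 (without AV array 1b) and from 261 (without ventricular array 1a) to 501 (without AV array 1a).

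Log2 folds that changed sign were all of probe sets that had not passed or had not been tested, and the cause was not tested. Thbs1 probe set 1 gave 0.10 with quantile normalisation and with median scaling, and ran from −0.35 to 0.24 over arrays left out. Fn1 probe set 2 gave 0.0099 and 0.12 under those scalings and −0.12 to 0.044 with arrays left out, and Fbln1 probe set 2 gave 0.019 and 0.011, and −0.32 to 0.030. With arrays left out Sparc probe set 1 ran from −0.034 to 0.54 and Fbln2 from −0.31 to 0.43. Thbs1 probe set 2, which was not tested, ran from −0.44 to 0.11 over arrays left out, against −0.16 with all arrays. Signal over background limits Tnc, Thbs1 and the second Fbln1 probe set, and 2 arrays per region limit every interval.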
